A study of Mus musculus with 12 samples.

Results

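The comparison described here sets the miRNAs of extracellular vesicles in the PLL libraries against those in the DZ libraries. Its members were the 3 PLL and the 3 DZ libraries, chosen by their titles from a series of 12, and only the rows that carry a mouse miRNA name were compared. All 12 libraries were labelled as mesenchymal stem cells from the bone marrow of C57BL/6 mice kept specific-pathogen-free, with no genotype change named, and every library, DZ included, carried the same treatment label, an intervention with antigen. The design text describes stromal cells that were exposed for 48 h to ESPs, HCF or pLL at 2 µg/ml, after which vesicles were pelleted from the medium by ultracentrifugation and their small RNA was sequenced. PLL carries the name of the pLL preparation. The labels do not say what DZ, aFM or NY stand for, nor which group, if any, received no antigen, so DZ is used here as a reference and not as an untreated control. Nothing says whether replicates A, B and C came from separate cultures or mice, so each p-value measures only the spread between libraries, which may be technical.

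Extracellular vesicles are membrane particles that cells shed into their surroundings, and miRNAs are among the RNAs they carry. A miRNA is a short RNA that, bound to an Argonaute protein, lowers the output of messenger RNAs that pair with its seed, the stretch of bases 2 to 8 from its 5′ end; miRNAs with the same seed form a family. Mesenchymal stem cells are supporting cells of the marrow with the capacity to become bone, cartilage or fat, and they are known for high levels of let-7 miRNAs, miR-21 and miR-143. Larval tapeworms of the genus Echinococcus cause hydatid disease, and their antigen preparations are used to study how host cells respond to the parasite.

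The mature sequences of 4 of the 5 miRNAs that passed the test are shown here because the result rests on them. They come from RefSeq's table for GRCm38.p6, which held a sequence for 109 of the 132 miRNAs tested (82.6%), and capitals mark the seed.
miR-9-5p: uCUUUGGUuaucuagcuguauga
let-7b-5p: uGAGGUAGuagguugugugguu
let-7c-5p: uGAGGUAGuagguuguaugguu
miR-676-3p: cCGUCCUGagguuguugagcu
The 2 let-7 miRNAs share their seed with 7 more of the tested miRNAs that had a sequence, whereas no other had the seed of miR-9-5p. The fifth miRNA, miR-143-3p, is described by its values only.

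The 6 libraries held 68647 to 177849 counts each. Counts on annotated miRNAs ran from 28592 to 60436 in PLL and from 17607 to 24758 in DZ, and the remaining counts lay on predicted loci that name no gene. Annotated miRNAs took 60.7%, 29.2% and 41.7% of the counts in PLL replicates A, B and C and 10.3%, 20.5% and 21.6% in DZ, so every PLL library was above every DZ library. The means were 43.9% ± 15.9 and 17.5% ± 6.23 (SD, n = 3), and the exact two-sided permutation test gave p = 0.1, the smallest that 3 against 3 allows. The 95% Wilson intervals of these shares reached at most 0.369 percentage points to either side and cover counting error only. PLL libraries held 285 to 287 miRNAs with at least 1 count and DZ libraries 212 to 236 (exact two-sided permutation p = 0.1), at unequal depth: 3 counts, the limit that a count of 0 allows, stood for 67.9 to 95.4 CPM (counts scaled to a common library size) in PLL and 114 to 183 CPM in DZ.

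**Figure D1:**
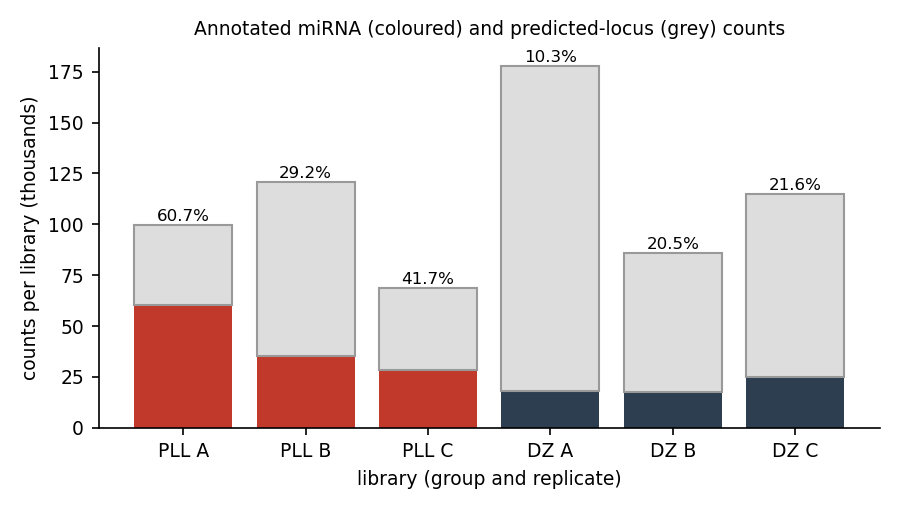
Counts per library (vertical axis, in units given on it) for the 6 libraries, split into annotated miRNAs (coloured) and predicted loci (grey), with the annotated share printed above each bar. The 3 PLL libraries have annotated shares of 29.2% to 60.7% and the 3 DZ libraries of 10.3% to 21.6%.

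Because the annotated share differed in this way, levels are given as CPM of annotated counts with a TMM-scaled library size, and the predicted loci entered no library size. A level is therefore a level relative to the other annotated miRNAs of that library. On this scale a fall of a miRNA cannot be told apart from a rise of the others. It gives neither the number of vesicles nor the amount of a miRNA in each vesicle. Differences are log2 fold changes of PLL over DZ from edgeR's quasi-likelihood fit, and an edgeR adjusted p is its p-value with Benjamini-Hochberg adjustment over the 132 miRNAs that passed the filter on low counts, of 425 with a count in these 6 libraries.

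In PLL, miR-9-5p was higher and miR-143-3p, let-7c-5p, let-7b-5p and miR-676-3p were lower than in DZ. These 5 were the miRNAs with an edgeR adjusted p under 0.05: 1 of 132 higher (0.758%) and 4 of 132 lower (3.03%). The rise of miR-9-5p was 351-fold, and the fall of the 3 abundant miRNAs was 1.63-fold to 2.19-fold. At an unadjusted p under 0.05 there were 37 miRNAs, 20 higher and 17 lower, and the median log2 fold change of all 132 was 0.22. The same 5 passed without PLL replicate A (5 of 146 tested, 3.42%), a library that stands apart from the other PLL libraries as described further on. In a fit of the PLL and DZ libraries alone, without the 6 other libraries that help to estimate the spread, only miR-9-5p passed. There miR-676-3p did not get past the filter on low counts and was not tested.

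The split between higher and lower depends on whether the predicted loci enter the analysis. When they entered the filter, library sizes, scaling and adjustment together, 58 of 141 annotated miRNAs were higher in PLL (41.1%) and 0 were lower, with an annotated median of 1.73. In that fit the log2 fold changes were 0.24 for miR-143-3p, 0.68 for let-7c-5p and 0.79 for let-7b-5p, which lie 1.49, 1.05 and 0.94 under the median of that fit. In the fit on annotated counts the same miRNAs lay 1.35, 0.96 and 0.92 under its median. Their fall is one relative to the other annotated miRNAs and was not seen in the fit over all rows.

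**Figure D2:**
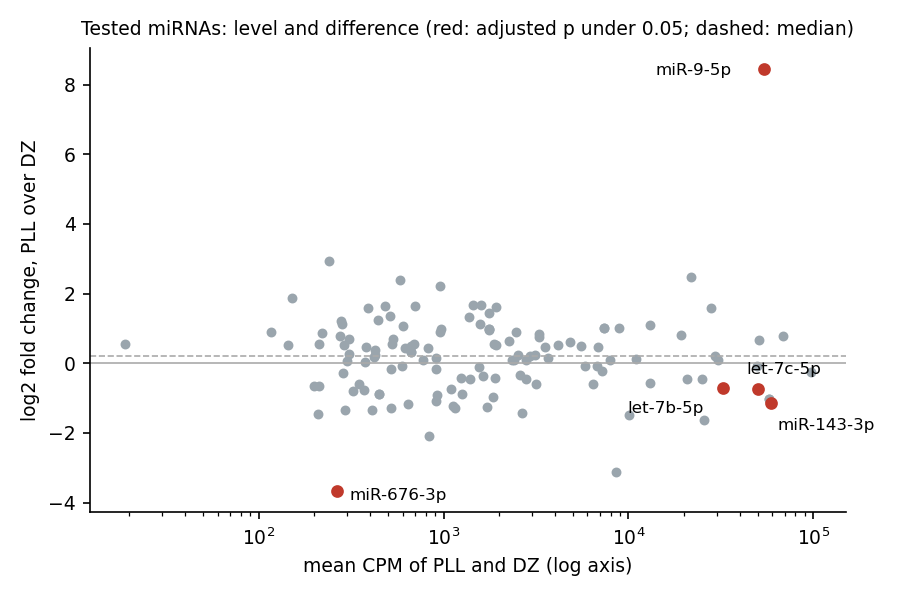
Each point is 1 of 132 tested miRNAs, with the mean CPM of the PLL and DZ group means on a log axis and the log2 fold change of PLL over DZ on the vertical axis. Red points have an edgeR adjusted p under 0.05, and the dashed line is the median of 0.22; miR-9-5p stands alone at 8.45, and 3 of the 4 lower miRNAs are among the most abundant.

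miR-9-5p is best known as a miRNA of neural progenitors and neurons and is also induced in monocytes by inflammatory signals. It stood at 85597, 113851 and 123700 CPM in PLL replicates A, B and C and at 427, 512 and 37.9 CPM in DZ, from 3780, 4533 and 3888 counts against 7, 9 and 1. The groups did not overlap, and the lowest PLL library was far above the highest DZ library. The log2 fold change was 8.45 ± 0.57 (SE; edgeR adjusted p = 5.8e-07). It took 10.9% ± 4.03 of annotated counts in PLL and 0.0311% ± 0.0243 in DZ (SD, n = 3), so a miRNA near the detection limit in DZ was among the most abundant in PLL.

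The rise of miR-9-5p passed in all 25 alternative analyses, with log2 fold changes of 7.72 to 10.07. GRCm38.p6 has 3 genes for it, all on the plus strand and each inside a long noncoding RNA gene of GENCODE vM21: Mir9-1 at chr3:88215598-88215686 in an intron of Gm3764, Mir9-3 at chr7:79505264-79505353 in an intron of Mir9-3hg, and Mir9-2 at chr13:83738814-83738885, overlapping an exon of C130071C03Rik. The 3 genes give the same mature 5p sequence, so the counts do not tell them apart. No read of the opposite arm, miR-9-3p, was counted in PLL or DZ, at 0 counts in each of the 6 libraries.

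Other miRNAs known from neurons were looked at beside it. miR-124-3p, the most abundant neuronal miRNA, had 0, 6 and 4 counts in PLL and 0, 0 and 0 in DZ and was too low to be tested. miR-128-3p, also enriched in neurons, stood at 2446, 2260 and 2609 CPM in PLL and 2805, 1821 and 2198 in DZ, with overlapping groups and a log2 fold change of 0.10 ± 0.26 (SE; edgeR adjusted p = 0.784). Of the 10 neural miRNAs listed, 4 were tested, and miR-9-5p was the 1 that passed. The other tested members, miR-7a-5p and miR-129-5p, had log2 fold changes of -0.89 and -0.61. Whether RNA from neural cells had a part in the level of miR-9-5p was not tested.

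**Figure D3:**
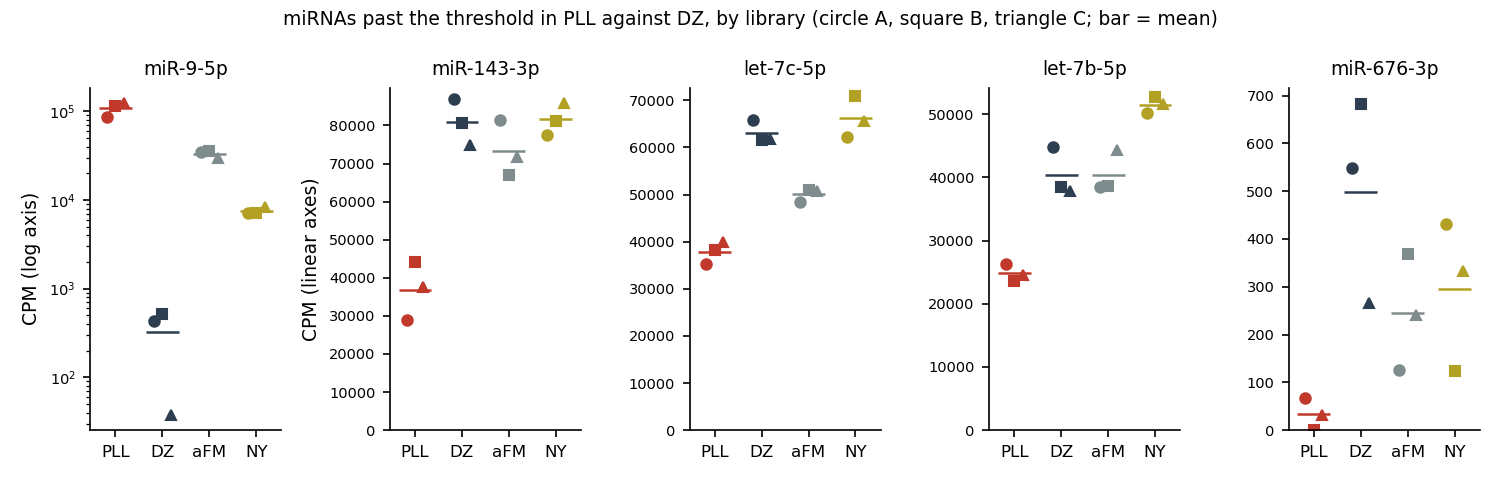
CPM of the 5 miRNAs with an edgeR adjusted p under 0.05 in PLL against DZ, in all 12 libraries by group (circle, square and triangle for replicates A, B and C; horizontal bar for the group mean), on a log axis for miR-9-5p and on linear axes from 0 for the rest. The PLL libraries lie above all others for miR-9-5p and below all others for the other 4.

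The let-7 family, which restrains proliferation and marks differentiated cells, held 2 of the 4 lower miRNAs. let-7c-5p stood at 35167, 38201 and 39992 CPM in PLL and 65848, 61566 and 61763 in DZ. let-7b-5p stood at 26268, 23559 and 24594 CPM in PLL and 44874, 38408 and 37815 in DZ. For both, the groups were tight and did not overlap. The log2 fold change of let-7c-5p was -0.74 ± 0.14 (SE; edgeR adjusted p = 0.00734), a 1.67-fold fall. That of let-7b-5p was -0.70 ± 0.15 (SE; edgeR adjusted p = 0.0182), a 1.63-fold fall. The call of let-7b-5p was lost with library totals as sizes (edgeR adjusted p = 0.0753), without a filter (0.153) and with the replicate letter as a block (0.0661). That of let-7c-5p was lost with library totals (edgeR adjusted p = 0.0753) and without a filter (0.102).

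The other 8 tested members of the family did not pass. let-7a-5p stood at 40511, 28456 and 25580 CPM in PLL and 25120, 28223 and 28381 in DZ, and let-7f-5p at 37250, 28281 and 29175 against 24144, 32604 and 32549. Both groups overlapped, and the log2 fold changes were 0.21 ± 0.19 and 0.08 ± 0.19 (SE). let-7i-5p, among the 10 most abundant miRNAs, stood at 59872, 40261 and 43301 CPM in PLL and 49325, 55933 and 47402 in DZ, with a log2 fold change of -0.09 ± 0.18 (SE). let-7g-5p was above DZ in every PLL library, at 20924, 7912 and 6936 against 5548, 5576 and 6707 CPM, but with an edgeR adjusted p of 0.105, and its log2 fold change of 1.00 was 0.27 without PLL replicate A. The remaining 4, let-7d-5p, let-7e-5p, let-7j and miR-98-5p, ranged from -0.34 to 0.54. Over the 10 tested members of 11 listed, 0 were higher and 2 lower, and the median was 0.01 beside 0.22 for all tested miRNAs; without PLL replicate A it was -0.18 beside -0.03.

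The members differ by few bases, which is shown here because both lower ones carry the same change. In these lines capitals mark the bases that differ from let-7a-5p, counted from 1 at the 5′ end.
let-7a-5p: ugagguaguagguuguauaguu
let-7b-5p: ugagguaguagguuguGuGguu
let-7c-5p: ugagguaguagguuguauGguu
let-7f-5p: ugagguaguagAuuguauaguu
let-7g-5p: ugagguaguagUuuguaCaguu
let-7i-5p: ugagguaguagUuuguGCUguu
miR-98-5p: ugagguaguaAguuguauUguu
let-7c-5p differs from let-7a-5p by A19G, let-7b-5p by A17G and A19G, and let-7f-5p by G12A. Of the 10 tested members, let-7b-5p and let-7c-5p were the ones with G at position 19, a feature looked for after their values were seen, and its part in the result was not tested. Reads of members that differ by 1 base can be counted under a neighbour if the counting allowed mismatches, and the counting rule is not given in the sources used here.

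**Figure D4:**
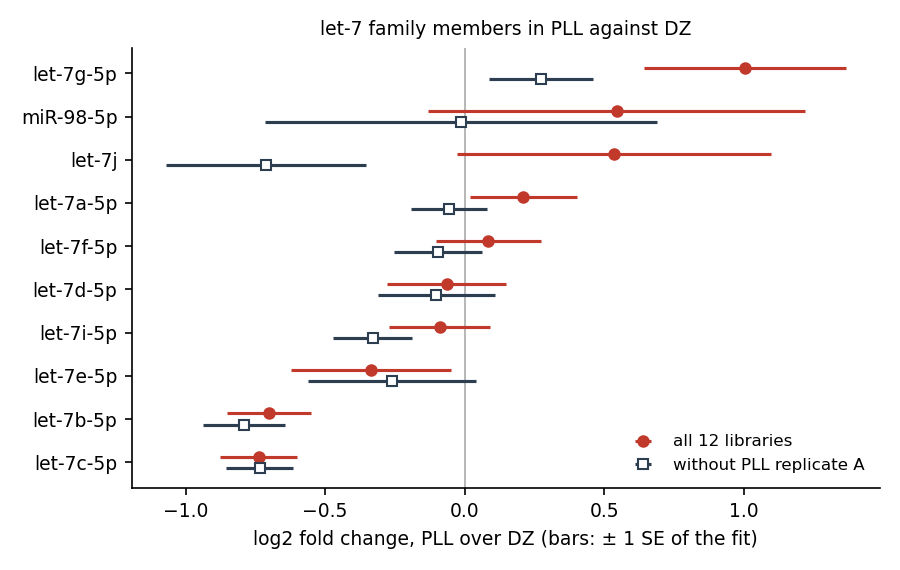
Log2 fold change of PLL over DZ (horizontal axis) for the 10 tested let-7 family members, with bars of ± 1 SE, from all 12 libraries (filled circles) and without PLL replicate A (open squares). let-7b-5p and let-7c-5p lie between -0.70 and -0.79 in both fits, while let-7g-5p goes from 1.00 to 0.27 and let-7j from 0.54 to -0.71.

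The genes of the lower let-7 miRNAs lie in clusters. Mirlet7c-2 (chr15:85706603-85706697) and Mirlet7b (chr15:85707319-85707403) are 621 bases apart on the plus strand and overlap exons of Lncppara. A second let-7c gene, Mirlet7c-1 (chr16:77599657-77599750), lies in an intron of Mir99ahg, 656 bases from Mir99a. The mature let-7c-5p from both genes is the same. miR-99a-5p, from the neighbouring hairpin, did not move with it: its log2 fold change was 1.59 ± 0.56 (SE; edgeR adjusted p = 0.0996) with all libraries and 0.13 without PLL replicate A. The 3p arm let-7c-2-3p, whose counts and sequence equal those of let-7a-1-3p, had 85 counts in PLL and 36 in DZ and a log2 fold change of 0.32 ± 0.41 (SE).

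miR-143-3p, which with its cluster partner miR-145 is known for smooth muscle and other contractile mesenchymal cells, fell 2.19-fold. It stood at 28940, 44254 and 37543 CPM in PLL and at 87066, 80628 and 74835 in DZ, and the highest PLL library was well below the lowest DZ library. The log2 fold change was -1.13 ± 0.17 (SE; edgeR adjusted p = 0.00202), the second smallest p after miR-9-5p; with library totals as sizes the edgeR adjusted p was 0.051. The passenger arm of its partner, miR-145a-3p, was also below DZ in every PLL library, at 498, 979.5 and 541 against 1707, 1764 and 1288 CPM. Its log2 fold change of -1.22 ± 0.35 (SE; edgeR adjusted p = 0.0647) missed the threshold in the edgeR fit of all libraries. It passed with DESeq2 on all libraries (adjusted p = 0.0323) and in edgeR without PLL replicate B (-1.85, edgeR adjusted p = 0.0118). miR-145a-5p, the guide arm, had only 8, 13 and 10 counts in PLL and 2, 15 and 11 in DZ, and its groups overlapped (log2 fold change -0.76 ± 0.85, SE). Of the 4 listed miRNAs of this cluster 3 were tested, with 1 lower and a median of -1.13 beside 0.22 for all miRNAs; miR-143-5p, at 8 counts in PLL and 6 in DZ, was too low.

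miR-676-3p, whose gene Mir676 lies at chrX:100381097-100381185 on the plus strand in an intron of Eda, was the 1 scarce miRNA that passed. It had 3, 0 and 1 counts in PLL and 9, 12 and 7 in DZ, or 67.9, 0 and 31.8 CPM against 549, 683 and 265. The groups did not overlap, but each PLL value was at or under the level that 3 counts stand for. The log2 fold change was -3.68 ± 0.84 (SE; edgeR adjusted p = 0.0246). Pooled over each group, DZ held 13.4 times the level of PLL (95% counting interval 4.68 to 52.5). The call was lost when DZ replicate A (edgeR adjusted p = 0.0514), replicate B of the same group (0.0692) or NY replicate C (0.0548) was left out, and also with the replicate letter as a block (0.0661). Without PLL replicate A the log2 fold change was -4.76 (edgeR adjusted p = 0.0351).

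PLL was also set against the aFM and NY groups for these 5 miRNAs. These comparisons share the PLL libraries with the one against DZ, so their values are given side by side and not as further evidence. Against aFM 12 of 132 miRNAs passed (9.09%) and against NY 9 of 132 (6.82%), in either direction. miR-9-5p stood at 34453, 35663 and 29976 CPM in aFM and 7127, 7168 and 8214 in NY, between PLL and DZ, and the 4 groups did not overlap. Its log2 fold change was 1.69 ± 0.40 over aFM (SE; edgeR adjusted p = 0.0205) and 3.84 ± 0.44 over NY (SE; edgeR adjusted p = 0.000189). The difference from aFM was lost when PLL replicate C or any 1 aFM library was left out (edgeR adjusted p of 0.0676 to 0.126).

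miR-143-3p stood at 81347, 66951 and 71828 CPM in aFM and 77569, 81274 and 85968 in NY, all above PLL. It was lower in PLL by 0.99 on the log2 scale against aFM and by 1.14 against NY (edgeR adjusted p = 0.00442 and 0.00119). let-7b-5p likewise was lower against both, with log2 fold changes of -0.71 and -1.05 (edgeR adjusted p = 0.0141 and 0.00101). The call against aFM was lost without aFM replicate C (edgeR adjusted p = 0.0691), with upper quartile factors (0.0548) and without a filter (0.111). let-7c-5p, at 48454, 50921 and 50736 CPM in aFM, did not pass there (log2 fold change -0.41, edgeR adjusted p = 0.0824) but was lower against NY (-0.81, edgeR adjusted p = 0.00197). Without PLL replicate A it passed against aFM (edgeR adjusted p = 0.048), and the call against NY was lost with upper quartile factors (edgeR adjusted p = 0.0685) and without a filter (0.0917). miR-676-3p did not pass against aFM or NY (-2.71 and -2.96, edgeR adjusted p = 0.0706 and 0.0584), but with DESeq2 it passed against both (adjusted p = 0.0213 and 0.0176). For these 4 lower miRNAs the PLL libraries were thus the lowest of all 12. In the fit over all rows, predicted loci included, miR-143-3p and both let-7 miRNAs had log2 fold changes above 0 in both comparisons.

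More miRNAs separated the groups than passed the test. In 14 of 132 miRNAs (10.6%) all 3 PLL libraries were above all 3 DZ libraries, and in 14 (10.6%) they were below. Both counts hold the miRNAs that passed, 1 among those above and 4 among those below. The 8 of smallest p on the higher side that did not pass were miR-1895, miR-26b-5p, miR-409-3p, miR-23a-3p, miR-146b-5p, miR-221-3p, miR-126a-3p and let-7g-5p, with edgeR adjusted p of 0.0534 to 0.105. Their log2 fold changes ran from 0.76 to 2.93. miR-1895, a scarce miRNA, came nearest to the threshold, at 815, 1281 and 827 CPM in PLL and 244, 114 and 190 in DZ (36, 51 and 26 counts against 4, 2 and 5; log2 fold change 2.39 ± 0.63, SE).

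miR-146b-5p, which damps NF-κB signalling by targeting its upstream adaptors, stood at 2695, 1281 and 3277 CPM in PLL and 305, 1081 and 871 in DZ (log2 fold change 1.66 ± 0.50, SE; edgeR adjusted p = 0.0647). Its seed twin miR-146a-5p gave overlapping groups and a log2 fold change of -0.43 ± 0.47 (SE; edgeR adjusted p = 0.547). miR-126a-3p, an endothelial miRNA whose gene lies in Egfl7, stood at 1698, 1909 and 2291 CPM in PLL and 610, 1423 and 341 in DZ (log2 fold change 1.34 ± 0.46, SE; edgeR adjusted p = 0.0927). Without DZ replicate B, the highest of its group, it passed (log2 fold change 2.05, edgeR adjusted p = 0.0116). miR-409-3p, from the imprinted region between Dlk1 and Dio3, had 14, 15 and 18 counts in PLL and 0, 3 and 0 in DZ. Pooled, PLL held 8.19 times the level of DZ (95% counting interval 2.64 to 41.2), with an edgeR adjusted p of 0.0647. It passed without DZ replicate B, which held all 3 of the DZ counts (edgeR adjusted p = 0.00813), and also with limma-voom (adjusted p = 0.0354), DESeq2 (adjusted p = 0.0323) and edgeR without a filter (adjusted p = 0.0361). Without DZ replicate C its log2 fold change was 2.09 rather than 2.93 (edgeR adjusted p = 0.167).

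For 3 of these higher miRNAs much of the difference came from PLL replicate A. Without it the log2 fold change went from 1.45 to 0.83 for miR-26b-5p, whose gene lies in an intron of Ctdsp1, from 1.63 to 0.79 for miR-23a-3p, and from 1.00 to 0.27 for let-7g-5p. miR-26b-5p stood at 4280, 1658 and 1845 CPM in PLL and 732, 967 and 1137 in DZ. miR-23a-3p stood at 5321, 1356 and 2036 CPM in PLL and 610, 967 and 1213 in DZ. When PLL replicate B was left out instead, miR-26b-5p, miR-23a-3p and miR-146b-5p passed (edgeR adjusted p = 0.0422, 0.0292 and 0.0422). miR-1895 passed without NY replicate B (edgeR adjusted p = 0.0457). DESeq2, with all libraries, put miR-1895 past the threshold (adjusted p = 0.0133). It did so too for miR-26b-5p, miR-23a-3p and miR-146b-5p (adjusted p = 0.0323 each) and for miR-126a-3p (adjusted p = 0.04999).

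On the lower side, the 8 of smallest p that did not pass were miR-145a-3p, miR-99b-5p, miR-423-5p, miR-196a-5p, miR-1981-5p, miR-484, miR-30a-3p and miR-30a-5p, with edgeR adjusted p of 0.0647 to 0.225 and log2 fold changes of -0.46 to -1.33. miR-423-5p, the most abundant of them, stood at 15059, 17958 and 19185 CPM in PLL and 25242, 21281 and 25198 in DZ (log2 fold change -0.46 ± 0.18, SE; edgeR adjusted p = 0.125). miR-196a-5p, a miRNA of the Hox clusters, stood at 770, 628 and 1082 CPM in PLL and 1524, 1195 and 1402 in DZ (edgeR adjusted p = 0.17). Both arms of the miR-30a hairpin were in this set, with log2 fold changes of -1.29 ± 0.64 for miR-30a-3p and -0.60 ± 0.31 for miR-30a-5p (SE). The other 3 tested miRNAs of the miR-30 family had values of -0.10 to 0.45, so 0 of its 4 tested guide strands passed.

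PLL replicate A stood apart from replicates B and C. Of the 30 most abundant miRNAs, the 5 with the widest gap were miR-140-3p, miR-99a-5p, miR-27b-3p, miR-100-5p and miR-148a-3p. miR-140-3p, a cartilage miRNA whose gene lies within Wwp2, stood at 99795 CPM in replicate A and at 5400 and 5122 in B and C, beside 6829, 8763 and 4395 in DZ. miR-148a-3p stood at 174092, 45058 and 41233 CPM in PLL and 45301, 45008 and 61914 in DZ. Together the 5 took 33.7% of the annotated counts of replicate A, 9.50% and 8.65% in B and C, and 8.35% to 10.7% in DZ. In this summed share replicates B and C were thus at the DZ level and replicate A alone was above it.

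The log2 fold changes of these 5 ran from 0.77 for miR-148a-3p to 2.47 for miR-140-3p, and none passed (edgeR adjusted p of 0.0996 to 0.325). Without replicate A they were -0.38 for miR-140-3p, 0.13 for miR-99a-5p, -0.54 for miR-27b-3p, -0.20 for miR-100-5p and -0.28 for miR-148a-3p. With replicate A kept, DESeq2 put miR-99a-5p past the threshold (adjusted p = 0.0415). So did edgeR without a filter for miR-99a-5p and miR-140-3p (adjusted p = 0.000276 and 4.6e-09). Of all 132 miRNAs, 29 were at least 2-fold higher in replicate A than the mean of B and C and 14 at most 0.5 times that mean. The sign of the log2 fold change went from positive to negative in 19 miRNAs when replicate A was left out and from negative to positive in 2. The 5 miRNAs that passed against DZ were not among those that changed sign.

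**Figure D5:**
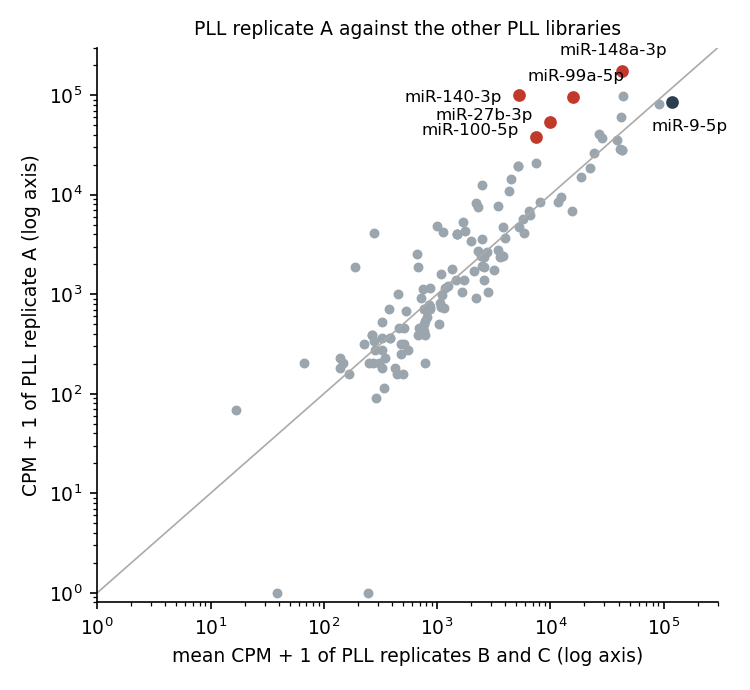
CPM + 1 of PLL replicate A (vertical axis) against the mean CPM + 1 of PLL replicates B and C (horizontal axis) for 132 tested miRNAs, both on log axes, with the line of equal level. The 5 red points, miR-140-3p, miR-99a-5p, miR-27b-3p, miR-100-5p and miR-148a-3p, lie 4.03-fold to 19-fold above the mean of B and C, whereas miR-9-5p (dark) lies near the line.

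The excess in replicate A was shared within some seed families and not in others, which the sequences of 2 families show (capitals mark the seed).
miR-148a-3p: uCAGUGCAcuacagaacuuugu
miR-148b-3p: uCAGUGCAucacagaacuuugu
miR-152-3p: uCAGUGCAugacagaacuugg
miR-99a-5p: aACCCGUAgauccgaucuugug
miR-100-5p: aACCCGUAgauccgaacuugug
miR-99b-5p: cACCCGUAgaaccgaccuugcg
All 3 members of the miR-148 and miR-152 family were 3.70 to 4.03 times as high in replicate A as the mean of B and C. In the family of miR-99a-5p and miR-100-5p the ratios were 6.02 and 5.12, but 0.904 for miR-99b-5p, which stood at 4778, 4998 and 5568 CPM in PLL and 9389, 5861 and 7995 in DZ. Across the 109 miRNAs with a sequence, Spearman's rho between GC content and the log2 gap of replicate A to B and C was -0.37, a description in which all points share the same 3 libraries. With the log2 fold change of PLL over DZ it was 0.02.

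The lists of miRNAs set for this tissue and treatment were read against the background of 1 higher and 4 lower in 132, and their members overlap in part. None of the lists beyond let-7, miR-143 with miR-145, and neural had a member that passed. Of 12 miRNAs tied to NF-κB and inflammation, 7 were tested; besides miR-146b-5p, miR-221-3p stood at 4733, 3767 and 3818 CPM in PLL and 2866, 1821 and 2577 in DZ (log2 fold change 0.76 ± 0.25, SE; edgeR adjusted p = 0.075), and its cluster partner miR-222-3p had 0.90 ± 0.37 (SE; edgeR adjusted p = 0.146). The list's median was 0.51, or 0.11 without replicate A. miR-155-5p, a miRNA of activated immune cells, had 11, 9 and 3 counts in PLL and 0, 0 and 3 in DZ and was too low to be tested.

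Of the 12 listed miRNAs that promote osteogenesis 8 were tested, with a median of 0.17 (-0.15 without replicate A). miR-26a-5p, which acts on the bone-forming programme and is among the 10 most abundant, stood at 98798, 39708 and 48583 CPM in PLL and 36155, 42732 and 39862 in DZ; its log2 fold change was 0.66 ± 0.28 (SE; edgeR adjusted p = 0.155) and 0.11 without replicate A. miR-196a-5p and miR-148a-3p, given above, are in the same list, as is miR-21a-5p, given below. Of the 16 listed miRNAs that restrain osteogenesis 11 were tested, with a median of 0.53 (-0.01 without replicate A); miR-23a-3p, miR-221-3p, miR-222-3p and miR-100-5p had the smallest p. The median of all tested miRNAs was 0.22, and -0.03 without replicate A, so the restraining list was above it with all libraries and near it without that library.

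The miR-23, miR-27 and miR-24 clusters also changed with that library. All 5 tested members had positive log2 fold changes, beside 80 of all 132 tested miRNAs. Their median was 0.53 beside 0.22 for all tested, and without replicate A it was -0.39 beside -0.03. The summed level was 88880, 21851 and 21889 CPM in PLL and 29632, 25491 and 25766 in DZ. The median also went from 0.85 to -0.13 in the miR-148 and miR-152 family (3 tested) and from 0.51 to -0.16 in the miR-99/100 and miR-125 families (5 tested). It was 0.00 in the miR-30 family (4 tested) and -0.18 among the miR-17-92 paralogs, of which 2 of 12 were tested (miR-92a-3p at -0.56 and miR-25-3p at 0.21). The miR-15 and miR-16 family had 0 of 6 members tested; miR-16-5p, its main member, had 20, 1 and 8 counts in PLL and 0, 8 and 2 in DZ.

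The Dlk1-Dio3 cluster, an imprinted region whose miRNAs come from the maternal chromosome, had a similar median with and without replicate A, although its members moved. All 5 tested members of 18 had positive log2 fold changes, as did 80 of all 132 tested miRNAs. The list's median was 0.90, and 0.92 without replicate A, with edgeR adjusted p of 0.0647 to 0.785 for its members. Without replicate A miR-127-3p went from 1.66 to 0.92, miR-381-3p from 0.90 to 0.75 and miR-379-5p from 0.53 to 0.20. miR-409-3p went from 2.93 to 3.06, and miR-411-5p, at 3 counts in PLL and 1 in DZ, from 0.56 to 1.10. The members of smallest p after miR-409-3p were miR-127-3p (1880, 804 and 541 CPM in PLL; 366, 0 and 606 in DZ; log2 fold change 1.66 ± 0.74, SE), miR-381-3p (0.90 ± 0.99) and miR-379-5p (0.53 ± 0.79). The summed level of the list was 3329, 2060 and 2004 CPM in PLL and 976, 1081 and 1061 in DZ, so the groups did not overlap. In aFM and NY it was 6199 to 7041 and 1272 to 2453 CPM.

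Most of the abundant miRNAs did not separate the groups. miR-21a-5p, a miRNA of stressed and proliferating cells, stood at 82087, 85319 and 98247 CPM in PLL and 86700, 117442 and 114394 in DZ (log2 fold change -0.26 ± 0.16, SE; edgeR adjusted p = 0.296). The erythroid miR-486, whose a and b forms have identical counts and are 1 measurement, stood at 28193, 44279 and 41520 CPM in PLL and 103162, 84952 and 43082 in DZ (log2 fold change -1.02 ± 0.33, SE; edgeR adjusted p = 0.075). DZ replicate C overlapped with PLL there, and without it miR-486a-5p passed (log2 fold change -1.41, edgeR adjusted p = 0.0117). With all libraries miR-486a-5p passed with DESeq2 (adjusted p = 0.0339) and in edgeR without a filter (adjusted p = 0.0108). The 10 most abundant miRNAs, miR-9-5p included, took 47.3% to 59.4% of annotated counts in PLL and 55.8% to 61.1% in DZ. These sums hold both forms of miR-486, so that measurement is counted 2 times. Each form took 2.06% to 4.98% in PLL and 4.59% to 9.25% in DZ.

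Some miRNAs were seen in PLL and not in DZ. Of the 425 miRNAs with a count, 16 (3.76%) had a count in every PLL library and 0 in every DZ library, and 0 had the reverse, with about 2 times as many annotated counts in PLL (124403 against 60661). None of the 16 passed the filter in the fit of all 12 libraries, so none was tested there, and they were singled out after their values were seen. miR-341-3p led them with 30, 27 and 6 counts, at least 11.0-fold higher over the group than the level that 3 counts stand for in DZ, and had 1 count in aFM and 0 in NY. It was tested and passed without a filter (edgeR adjusted p = 0.00969), without PLL replicate C (edgeR adjusted p = 0.0447) and in the fit over all rows (edgeR adjusted p = 0.00315). It was picked by the same PLL and DZ counts, and only its PLL counts bring it past a filter. These p-values are therefore not further evidence. miR-3470b had 11, 8 and 9 counts (at least 4.88-fold higher) and miR-342-3p 10, 2 and 11 (at least 4.01-fold higher). The bound fell to 1.05 for miR-34a-5p and 0.872 for miR-760-3p, the scarcest of the 16. Of the 16, only miR-10b-3p had 0 counts in both aFM and NY. miR-3470b had 6 and 3 counts there, miR-342-3p 2 and 3, and miR-382-5p 14 and 6. miR-341-3p, miR-134-5p and miR-382-5p lie between Dlk1 and Dio3. They are 3 of the 15 with a known position, beside 36 of 362 (9.94%) among all miRNAs with a count and a position, a difference that was not tested. miR-142a-3p, a leukocyte miRNA, had 7, 5 and 5 counts, while its other arm miR-142a-5p had 82, 118 and 71 counts in PLL and 58, 56 and 79 in DZ.

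Markers of the cells that vesicle RNA could come from were compared between the groups. Of the 9 mesenchymal miRNAs all were tested and 1, miR-143-3p, was lower; their summed level was 245082, 149214 and 155420 CPM in PLL and 195836 to 220546 in DZ, so these miRNAs were abundant in every library, and PLL replicates B and C were below DZ. The erythroid markers, with both forms of miR-486 counted once, are 3 measurements that summed to 46852 to 67537 CPM in PLL and 61346 to 137122 in DZ, with overlap. Of these, miR-486 and miR-451a were tested and neither passed. The third, miR-144-3p, was too low to be tested and went the other way, at 18 counts in PLL and 1 in DZ. The liver and gut markers stood at 46455 CPM in DZ replicate C, from miR-122-5p (38119 CPM), and at most at 10404 in the other 5 libraries. Endothelial markers summed to 1698 to 2323 CPM in PLL and 493 to 1423 in DZ, most of it miR-126a-3p (223 counts against 44). The other arm, miR-126a-5p, was too low to be tested, at 0, 0 and 1 counts in PLL and 0, 0 and 4 in DZ. Leukocyte markers summed to 2083 to 3767 CPM in PLL and 3145 to 3719 in DZ, most of it miR-142a-5p (271 counts against 193). The other members were too low to be tested and had more counts in PLL, at 124403 annotated counts against 60661. miR-223-3p had 0, 21 and 19 counts in PLL and 2, 2 and 2 in DZ. Pooled, miR-142a-3p had 17 against 0 and miR-150-5p 10 against 4. Muscle and epithelial markers summed to at most 796 and 2219 CPM in any of the 6 libraries. These levels move in part with the groups, and their part in the differences of the 5 miRNAs that passed was not tested.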

How the data were processed

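The authors deposited 1 table of raw read counts, whole numbers per row with no normalization, for 12 small RNA libraries. The submitters' processing notes list mm39 as the build and FastQC, STAR, StringTie and DESeq2 as tools, without versions or roles. How miRNAs were called, and with how many mismatches, is not given in the sources used here. The extraction text speaks of mRNA libraries, per the labels' protocols, whereas the design text names a small RNA kit. Of 3509 rows, 1978 carry miRNA names and 1531 are predicted loci, which entered neither library sizes nor tests and made up 39.3% to 89.7% of the counts of the 6 libraries.

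Counts were analysed with edgeR 4.0.16 and limma 3.58.1 in R 4.3.3: the default filterByExpr (a count of at least 10 and a total of at least 15), TMM, and 1 quasi-likelihood fit of all 12 libraries with group as the only term, so that the 4 groups share the estimate of spread. The 132 miRNAs tested held at least 98.2% of the annotated counts of each of the 6 libraries. The threshold was an adjusted p of 0.05, and an SE is the log2 fold change divided by the square root of F. Alternatives used DESeq2 1.42.0 and limma-voom among others. Scripts were tested on simulated data. Counting noise alone did not account for the difference between any 2 libraries of a group (chi-square test), which does not show that replicates came from separate cultures, and libraries were counted as the labels give them; 37 sets of annotated rows held identical counts, and 127 features were tested with them merged.

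The miRNAs named are all that passed, the 8 higher and 8 lower of smallest p that did not pass but did not overlap, the 10 most abundant, the 5 of the 30 most abundant with the widest gap of PLL replicate A, and up to 4 members of smallest p of each list. The members of the comparison and the lists were chosen with earlier results of these data known. List medians without PLL replicate A were added after the data were seen. Sequences and positions are from RefSeq (GRCm38.p6) and host genes from GENCODE vM21, matched by miRNA name; no coordinate was taken from the table.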

Additional observations from a re-analysis of the deposited data

How the results depend on the processing

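The number of miRNAs that passed in PLL against DZ was 5. It was 58 with predicted loci in the filter, scaling and adjustment (58 higher, 0 lower), 20 with DESeq2 (8 higher, 12 lower; 4 adjusted p were NA), 17 without a filter (8 higher, 9 lower, 3 of the 5 among them), 2 with library totals, 3 with the replicate block (1 higher, 2 lower), and 1 in fits of the PLL and DZ libraries alone, with or without PLL replicate A; 5 or 6 passed with RLE or upper quartile factors, sizes without miR-9-5p, another count filter, limma-voom or merged rows. Leaving out 1 library gave 4 to 17: 17 without PLL replicate B, 11 without DZ replicate C, 9 without PLL replicate C and 8 without DZ replicate B. Same-letter deviations from the PLL and DZ means correlated at -0.11, 0.00 and -0.17. With 3 libraries per group and PLL replicate A apart, these values cannot settle whether the replicate letters pair the libraries. With predicted loci included in this way the median shifted by 1.52, and log2 fold changes below 0 came out above it: miR-143-3p 0.24, let-7c-5p 0.68, let-7b-5p 0.79, miR-145a-3p 0.10, miR-99b-5p 0.90, miR-423-5p 0.94, miR-196a-5p 0.76, miR-484 0.28, miR-30a-3p 0.36, miR-30a-5p 0.71, miR-21a-5p 1.07, miR-486a-5p and miR-486b-5p 0.50 and let-7i-5p 1.40 against DZ; miR-143-3p 0.80, let-7c-5p 1.43 and let-7b-5p 1.15 against aFM; miR-143-3p 0.050, let-7c-5p 0.44 and let-7b-5p 0.24 against NY. In the fit of the PLL and DZ libraries without PLL replicate A, miR-148a-3p was -0.23, miR-140-3p -0.32, miR-27b-3p -0.48 and miR-100-5p -0.15. Leaving out 1 library of the 12 gave -0.28 to 0.88 for miR-148a-3p, -0.38 to 2.71 for miR-140-3p, -0.54 to 0.97 for miR-27b-3p and -0.20 to 1.19 for miR-100-5p, each lowest without PLL replicate A. The difference in annotated share, 26.4 percentage points, was 17.99 to 33.7 with 1 library left out. Depth limits the scarce miRNAs: in DZ 3 counts stand for 114 to 183 CPM, and 293 of the 425 miRNAs with a count were not tested.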

Other observations

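Some lower miRNAs outside the naming rule were looked at after their values were seen. miR-5110, a miRNA of unclear origin, stood at 906, 2939 and 1464 CPM in PLL and 33107, 1024 and 11974 in DZ, with a log2 fold change of -3.11 ± 0.87 (SE; edgeR adjusted p = 0.0647). DZ replicate B was at the PLL level, so the groups overlapped. miR-5119 gave the same kind of spread, at 6907, 20595 and 10276 CPM in PLL and 73896, 25036 and 17392 in DZ (log2 fold change -1.62 ± 0.57, SE; edgeR adjusted p = 0.0996). miR-16-2-3p, from the passenger strand of a miR-16 hairpin, stood at 725, 1532 and 764 CPM in PLL and 3292, 2845 and 1175 in DZ (log2 fold change -1.26 ± 0.41, SE; edgeR adjusted p = 0.075). DESeq2 put all 3 past the threshold, as did edgeR without PLL replicate B or without DZ replicate C. miR-3960, a miRNA of the osteoblast programme, had 0 counts in PLL replicate A and 8 and 9 in B and C, beside 7, 5 and 2 in DZ.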
